A study of Mus musculus with 20 samples.

Results

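The 10 genes of fibroblasts and mural cells followed across the treated tumors were *Fap*, *Pdgfra* and *Thy1* as fibroblast genes, *Pdgfrb*, *Foxs1*, *Rgs5* and *Cspg4* as pericyte genes, and *Acta2*, *Tagln* and *Des* as smooth muscle genes. They were chosen by symbol with earlier results of these data known, so the shares over all genes set beside them are description only. Each matched 1 row of the count table, which holds 54309 genes, and all 10 were among the 19567 genes with enough counts to be tested. The libraries are bulk mRNA sequencing of subcutaneous tumors of SCCVII, a mouse squamous carcinoma line, grown in immunocompetent C3H/HeOuJ mice. There were 20 libraries in 10 groups of 2. Tumors had received anti-CD8 with both APG-157 and anti-CTLA-4 (the CD8-depleted combination), APG-157 plus the pair anti-PD-1 and anti-CTLA-4 (APG-157 with both antibodies), APG-157 with anti-CTLA-4 (the combination), anti-PD-1 with anti-CTLA-4 (both antibodies), APG-157 with anti-PD-1, a single agent (APG-157, anti-CTLA-4, anti-PD-1 or anti-CD8) or control treatment. APG-157 is a botanical drug that contains curcumin, anti-PD-1 and anti-CTLA-4 are antibodies that block T cell checkpoints, and anti-CD8 depletes CD8+ T cells. Whether libraries A and B of a group are different tumors is not in the labels. The tests measure the spread between these libraries, which may be technical. This matters most for the combination, for which the paper describes scarce material, with a single small tumor used for protein blots. It does not say which tumors were sequenced, so both combination libraries may come from the same tumor. Per the paper's results, CD8+ T cells were depleted in an experiment of its own with its own controls. The labels do not say which experiment the control and combination libraries are from, so experiment and anti-CD8 cannot be told apart.

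Fibroblasts make the collagen-rich matrix of a tumor, and mural cells (pericytes on capillaries, smooth muscle cells on larger vessels) wrap the endothelium. Both depend on platelet-derived growth factor (PDGF) signaling. PDGF ligands from endothelium, platelets and tumor cells bind the receptors PDGFRα, typical of fibroblasts, and PDGFRβ, which recruits pericytes to vessels. Contractile genes such as *Acta2* and *Tagln* mark smooth muscle cells and also activated fibroblasts, and in these cells they are under control of serum response factor, which binds CArG boxes near the gene start. In a bulk tumor, fewer cells of a type and less RNA per cell cannot be told apart.

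The promoter of *Acta2* is shown because this gene carries 2 near matches to such boxes. It also passed in 1 comparison, the CD8-depleted combination against the combination, a result that rested on single libraries. RefSeq promoters on GRCm38.p6 (an earlier build than the GRCm39 of the counts) were at hand for 5 of the 10 genes, *Acta2*, *Cspg4*, *Des*, *Pdgfra* and *Rgs5*. The 150 bases before the *Acta2* start, chr19:34255374-34255523 on the minus strand, and those before the *Des* start, chr1:75360142-75360291 on the plus strand, are printed with CArG boxes in capitals.
Acta2: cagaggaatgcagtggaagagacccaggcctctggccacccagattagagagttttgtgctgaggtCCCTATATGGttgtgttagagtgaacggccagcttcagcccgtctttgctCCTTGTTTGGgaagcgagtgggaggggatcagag
Des: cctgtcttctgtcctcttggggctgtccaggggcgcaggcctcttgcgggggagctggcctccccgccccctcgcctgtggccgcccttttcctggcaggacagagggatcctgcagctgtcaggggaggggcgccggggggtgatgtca
A CArG box was searched as CC and GG with A or T between them, allowing at most 1 other base in the middle, a pattern that reads the same on both strands. The first box of *Acta2* begins 84 bases and the other 34 bases before the start, and each has 1 such other base. Within 250 bases before the start, 8.59% of 32851 mouse promoters had at least 1 such box and 0.67% had 2 or more. A box with only A or T in the middle was in 1.47% of promoters and in none of the 5 genes. The windows of *Cspg4*, *Des*, *Pdgfra* and *Rgs5* had no match, which says only that these letters are not there.

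Library totals lay between 43.9 and 72.1 expected counts in units of 1e6 (median 54.9). *Cd8a* read 0.26 and 0.381 CPM (counts per 1e6) in the CD8-depleted combination libraries and 0.144 and 0.121 CPM in the anti-CD8 libraries, against 5.66 and 6.67 CPM in control. The tumor label was checked with keratins: *Krt8* was at or above 508 CPM and *Krt18* at or above 468 CPM in every library, whereas the squamous keratin *Krt5* was at 0 in 16 of 20 libraries, *Krt6a* in 15 and *Krt14* in 4. Endothelial *Pecam1* was at or above 31.1 CPM throughout. Replicate B of the CD8-depleted combination stood apart. Its mean log2(CPM + 0.1) of 9 adipocyte genes was 8.46, where the other 19 libraries ranged from −1.98 to 2.39, and its smooth muscle, other pericyte, endothelial, epithelial and Schwann cell genes were also the highest and its macrophage genes the lowest. Epithelial *Epcam* had 218 CPM in it, where the median of all libraries was 0.211 CPM, and *Cdh1* had 224 CPM, where the median was 4.43 CPM. Its *Krt8* and *Krt18*, at 508 and 468 CPM, were by contrast the lowest of all libraries. The pair of combination libraries was much closer than any other pair, with a biological coefficient of variation of 4.25%, against 20.8% to 68.2% in the other 9 groups. Calls among the 10 genes and counts over gene lists that rest on these 3 libraries are given also with each of them left out.

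*Pdgfra*, the receptor used to define fibroblasts, and *Cspg4* (NG2, a surface proteoglycan of pericytes) varied least. *Pdgfra* ranged from 106 to 273 CPM with a median of 187 CPM and a coefficient of variation over 20 libraries of 23.1%. *Cspg4* ranged from 46.0 to 133 CPM with a median of 89.0 CPM and a coefficient of variation of 22.4%. The lowest library for both was replicate B of the CD8-depleted combination. Both were at middle or higher levels in the combination, where 5 of the other members had their lowest values.

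*Fap*, a membrane protease of activated fibroblasts, was low overall. It had 4.46 and 4.65 CPM in the CD8-depleted combination, 5.32 and 2.56 CPM in APG-157 with both antibodies, 0.589 and 0.621 CPM in the combination, 3.18 and 2.49 CPM with both antibodies, 9.80 and 1.80 CPM after APG-157 with anti-PD-1, 1.42 and 5.57 CPM in APG-157, 1.19 and 3.16 CPM in anti-CTLA-4, 4.27 and 4.81 CPM in anti-PD-1, 4.84 and 3.49 CPM in anti-CD8, and 4.63 and 3.38 CPM in control. Both combination libraries were below all 18 others, and 34 expected counts stood behind the lowest value. In the order of group means, the combination and the next group, anti-CTLA-4, did not overlap, and all 8 higher neighbors did.

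*Pdgfrb*, the receptor that pericytes need to reach vessels, showed a similar order with a higher level. It had 166 and 70.2 CPM in the CD8-depleted combination, 82.3 and 76.8 CPM in APG-157 with both antibodies, 49.1 and 44.1 CPM in the combination, 120 and 85.5 CPM with both antibodies, 114 and 119 CPM after APG-157 with anti-PD-1, 81.0 and 210 CPM in APG-157, 73.0 and 59.4 CPM in anti-CTLA-4, 131 and 186 CPM in anti-PD-1, 173 and 127 CPM in anti-CD8, and 221 and 132 CPM in control. The 4 lowest group means were those of the 4 groups given anti-CTLA-4 without anti-CD8, and control had the highest.

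*Foxs1*, a forkhead transcription factor found in pericytes and perivascular smooth muscle, had 5.79 and 3.87 CPM in the CD8-depleted combination, 3.17 and 3.63 CPM in APG-157 with both antibodies, 1.34 and 1.19 CPM in the combination, 4.67 and 4.75 CPM with both antibodies, 4.63 and 4.69 CPM after APG-157 with anti-PD-1, 3.28 and 8.64 CPM in APG-157, 3.73 and 4.09 CPM in anti-CTLA-4, 4.51 and 9.56 CPM in anti-PD-1, 4.52 and 4.10 CPM in anti-CD8, and 7.25 and 10.3 CPM in control. The combination had the lowest group mean, 1.26 ± 0.107 CPM, and control again the highest, 8.79 ± 2.17 CPM (SD, n = 2 libraries each). Counted over the 9 steps between neighboring groups, 4 did not overlap, the most of any member, all at the low end of the order. Such steps were not counted over all genes.

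*Acta2* (smooth muscle α-actin) and *Tagln* (transgelin, an actin-binding protein of contractile cells) shared their lowest and highest libraries. *Acta2* had 242 and 645 CPM in the CD8-depleted combination and 119 and 113 CPM in the combination, against 298 and 238 CPM in control, and the other 14 libraries ranged from 155 to 481 CPM. *Tagln* had 11.2 and 403 CPM in the CD8-depleted combination and 5.45 and 4.71 CPM in the combination, against 9.37 and 14.5 CPM in control, and the other 14 ranged from 6.17 to 31.6 CPM. The 403 CPM came from the adipocyte-rich replicate B and was the only *Tagln* value above 31.6 CPM.

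*Rgs5* (a regulator of G protein signaling and pericyte marker) had 24.1 and 25.7 CPM in the combination, against 30.3 and 60.03 CPM in control, within a range of 21.4 to 84.5 CPM over all libraries. None of its 9 neighboring groups were separated. *Thy1* (CD90, a surface protein of fibroblasts and, in the mouse, of T cells) ranged from 10.3 to 68.5 CPM. *Des* (desmin, the intermediate filament of muscle) had the widest range, 0.65 to 337 CPM, a 519-fold span. The libraries of a group could differ widely in *Des*: APG-157 with anti-PD-1 had 273 and 0.65 CPM, and APG-157 with both antibodies had 337 and 1.73 CPM.

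**Figure D1:**
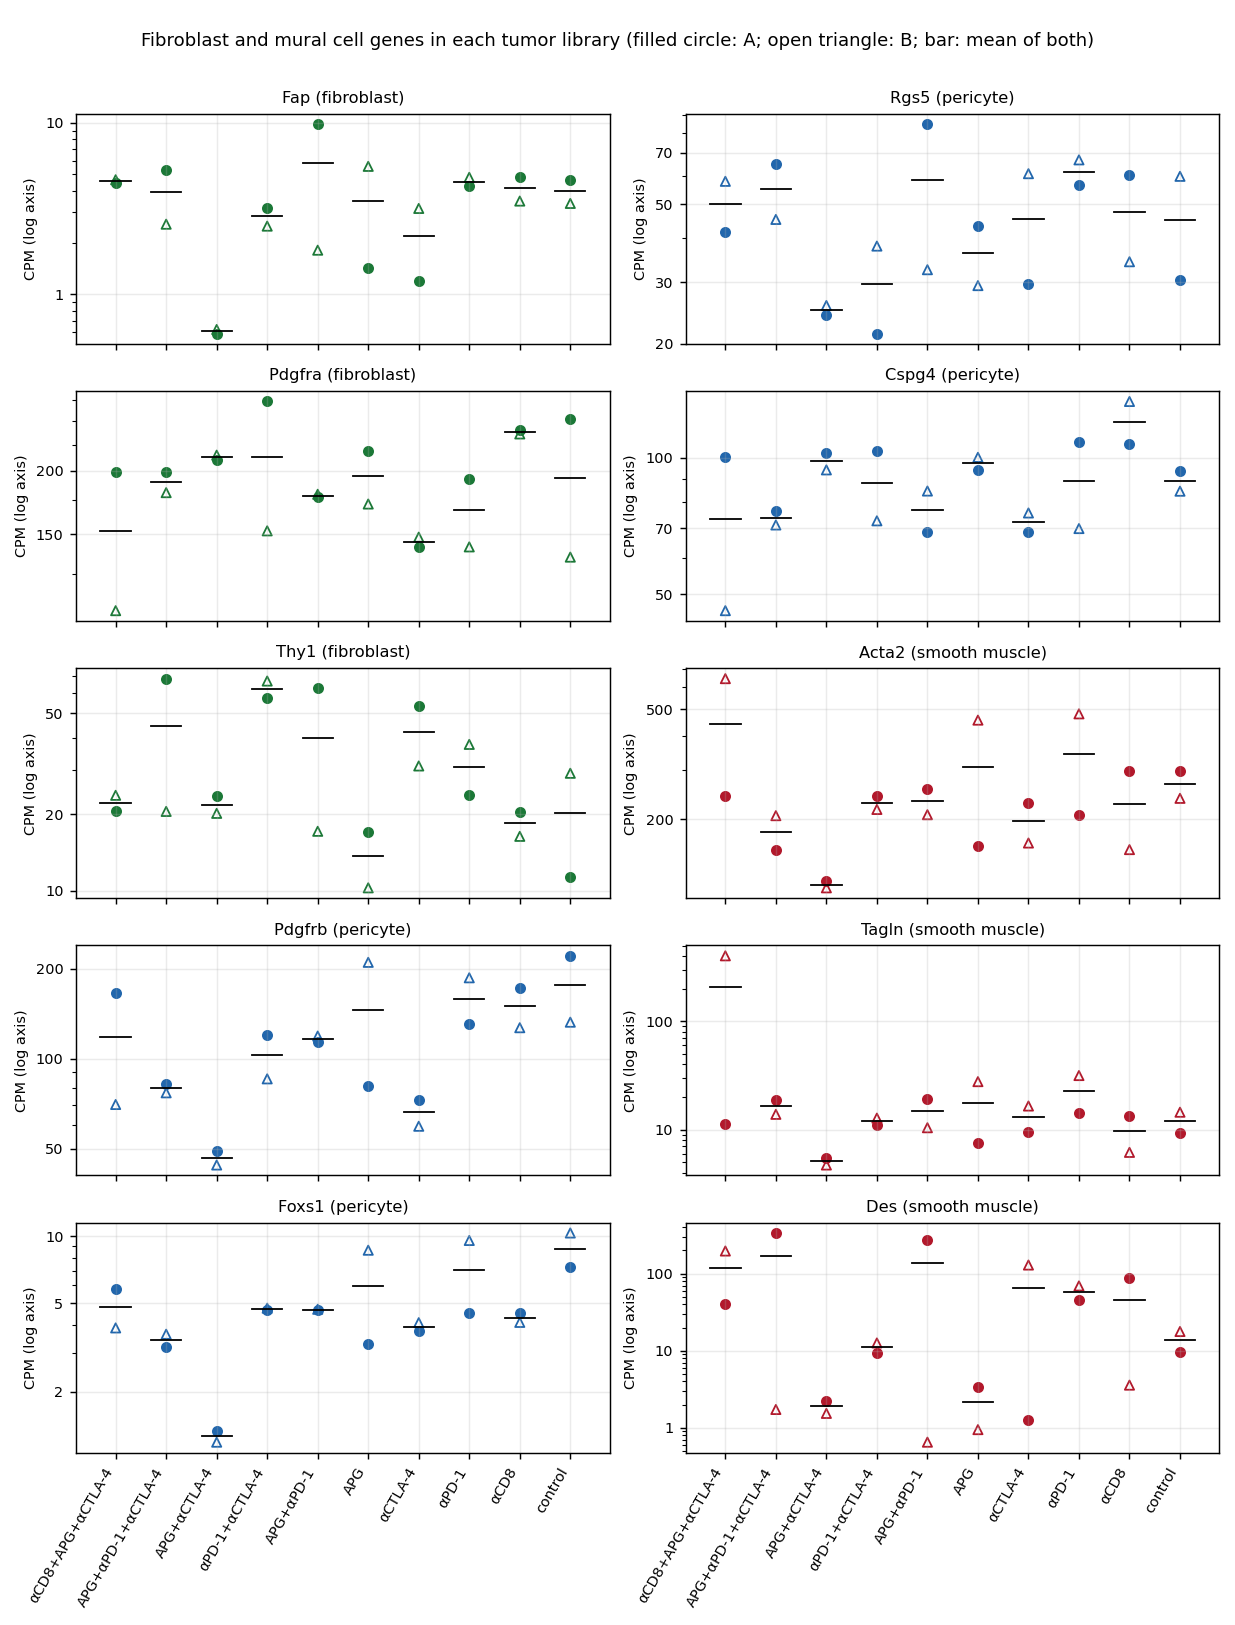
CPM (log axis) of the 10 genes in each library, with the groups along the x axis (APG is APG-157, α is anti-). Filled circles are libraries A, open triangles libraries B, and bars the mean of both. For *Fap*, *Pdgfrb*, *Foxs1*, *Acta2* and *Tagln* the 2 combination libraries lie below the other 18, while *Pdgfra* and *Cspg4* stay within 106 to 273 and 46.0 to 133 CPM.

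For 5 of the 10 genes (*Fap*, *Pdgfrb*, *Foxs1*, *Acta2* and *Tagln*), the combination libraries were the lowest 2 of 20. Over all genes tested this held for 5.35%. No other group had the lowest 2 or the highest 2 libraries for any of the 10 genes. In those groups the lowest 2 held for only 0.0971% to 1.68% of all genes and the highest 2 for 0.0869% to 4.25%. As a description by role, the mean gene-centred log2(CPM + 0.1) of the fibroblast genes was −0.718 and −0.76 in the combination libraries, against −0.054 and −0.05 in control. That of the pericyte genes was −0.815 and −0.902 in the combination, against 0.364 and 0.514 in control. That of the smooth muscle genes was −1.625 and −1.894 in the combination, against −0.248 and 0.147 in control. Without *Des* it was −1.166 and −1.308 in the combination, against −0.118 and 0.03 in control. Replicate B of APG-157 with anti-PD-1 was at −1.6 with *Des* and −0.305 without it. Fibroblast and mural genes were thus low in the same 2 libraries, and the fibroblast and pericyte genes split: *Fap* but not *Pdgfra* or *Thy1*, and *Pdgfrb*, *Foxs1* and *Rgs5* but not *Cspg4*. Which cells of the tumor carry each gene was not tested, so this split is between genes and not within a cell type. All 3 smooth muscle genes had their lowest group mean in the combination. With a pseudocount of 1 CPM the combination minus control difference of the fibroblast genes was −0.39, against −0.69 with 0.1.

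**Figure D2:**
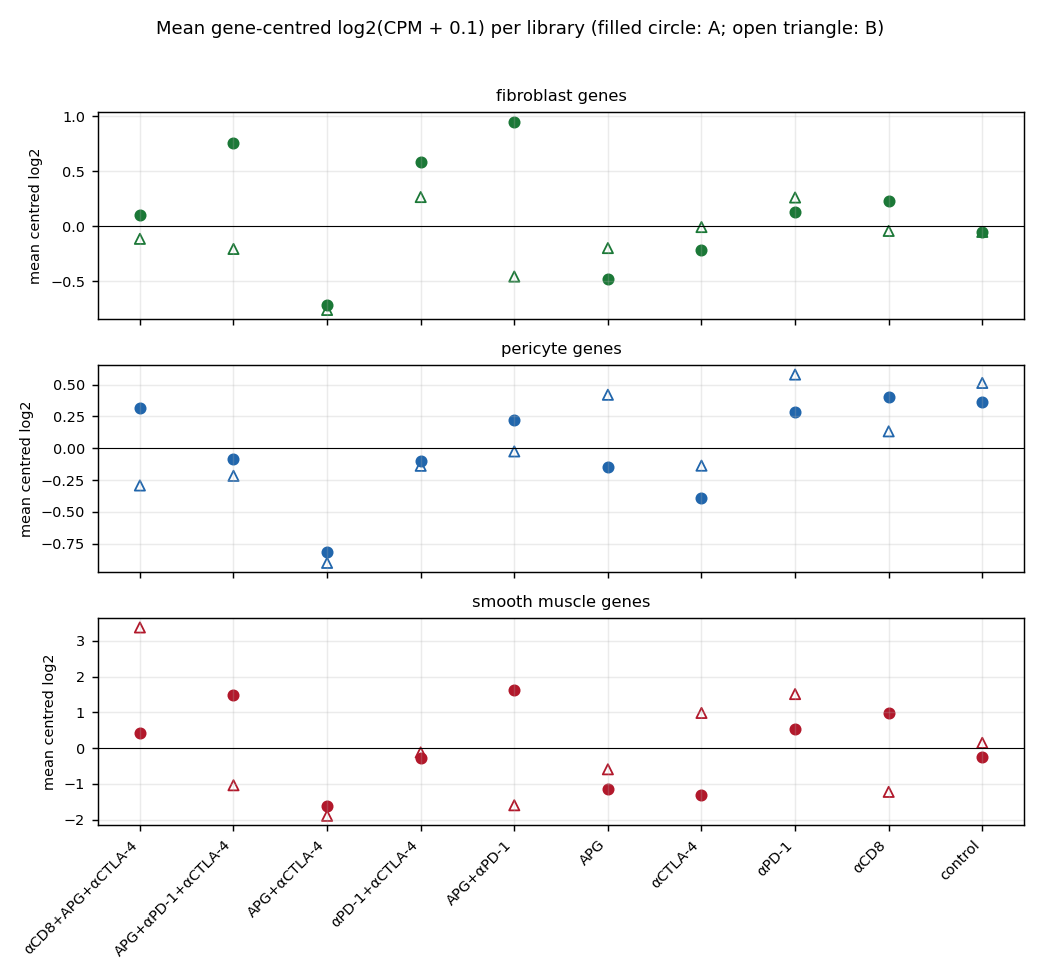
Mean gene-centred log2(CPM + 0.1) of the 3 fibroblast, 4 pericyte and 3 smooth muscle genes in each library (circles A, triangles B) by group. The combination libraries are at −0.815 and −0.902 for the pericyte genes, against 0.364 and 0.514 in control, and replicate B of the CD8-depleted combination is at 3.377 for the smooth muscle genes.

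The comparison of the combination with control asks what the combination does to the stroma of the tumor. *Foxs1* had a log2 fold change of −2.80 ± 0.444 (SE), *Fap* had −2.72 ± 0.776, *Pdgfrb* −1.92 ± 0.449 and *Acta2* −1.21 ± 0.544. None of the 10 genes was called by edgeR at an adjusted p under 0.05, and 4 of 19567 genes were (0.0204%), all lower. The adjusted p was 0.0542 for *Foxs1*, 0.172 for *Pdgfrb*, 0.274 for *Fap* and 0.447 for *Acta2* in edgeR. At an unadjusted p under 0.05, 4 of the 10 genes were lower and 0 higher, against 5.39% of all genes lower. In 7 genes both combination libraries were below both control libraries and in 1 (*Cspg4*) above, where 28.8% of all genes were below and 28.8% above. The median log2 fold change was −1.22 over the 10 genes and −0.031 over all genes. *Tagln* (−1.23 ± 1.09), *Rgs5* (−0.86 ± 0.500) and *Des* (−2.84 ± 2.50) had wider errors, and *Pdgfra* (0.13 ± 0.329), *Cspg4* (0.14 ± 0.297) and *Thy1* (0.12 ± 0.632) lay near 0. *Rgs5* had −0.29 without control B and −1.27 without control A, and *Des* had 0.007 with the skeletal muscle covariate. Of 16 skeletal muscle genes 16 were negative (median −4.93) and of 9 adipocyte genes 8 (median −2.75), none at an unadjusted p under 0.05. The call on *Foxs1* depended on the fit. It passed in edgeR without a low-count filter (adjusted p = 0.00254) and without the adipocyte-rich library (0.0429), and DESeq2 called *Foxs1*, *Pdgfrb* and *Fap* (adjusted p = 2.08e-07, 0.00139 and 0.018).

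Most genes of the wider stromal lists also had negative fold changes in this comparison, and none of the list genes named here was called by edgeR. Of 23 other fibroblast genes tested, 20 had a negative log2 fold change, 13 of them at an unadjusted p under 0.05, with a list median of −1.15, where 53.1% of all genes were negative and 5.39% lower at an unadjusted p under 0.05. The 13 became 7 and 8 without combination replicate A and B, and 12 without the adipocyte-rich library. *Lum* (lumican, a collagen-binding proteoglycan) had 0.265 and 0.384 CPM in the combination, against 7.86 and 7.56 CPM in control. *Cthrc1*, a secreted protein of activated fibroblasts, had 0.0736 and 0.0731 CPM, against 0.61 and 1.93 CPM in control. *Postn* (periostin, a matrix protein) had 29.9 and 31.7 CPM, against 291 and 184 CPM in control, with a log2 fold change of −2.95 ± 0.514 (edgeR adjusted p = 0.0851). *Pdpn* (podoplanin) had the opposite sign, with 332 and 337 CPM, against 210 and 219 CPM in control. For each of these 4 genes the groups did not overlap, where 28.8% of all genes were below and 28.8% above.

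Of 16 other pericyte genes, 13 had a negative log2 fold change in the combination against control, 6 at an unadjusted p under 0.05, with a median of −0.97. The 6 became 3 without combination B or control B, and the median −0.51 without control B. *Vtn* (vitronectin) had 0.5 and 0.165 CPM in the combination, against 0.772 and 1.94 CPM in control, and *Steap4*, a metalloreductase found in pericytes, had 0.456 and 0.731 CPM, against 1.51 and 2.86 CPM in control. Of 13 other smooth muscle genes, 10 were negative, 0 lower at an unadjusted p under 0.05, and the median was −0.32. *Itga8* (integrin α8) had 7.23 and 7.42 CPM in the combination, against 1.97 and 0.758 CPM in control, and *Myh11* (smooth muscle myosin) had 2.18 and 1.70 CPM, against 0.305 and 1.05 CPM in control, so 2 smooth muscle genes stood opposite to *Acta2* and *Tagln*. The 4 PDGF ligand genes had log2 fold changes between −0.44 (*Pdgfd*) and 0.11 (*Pdgfb*), and none was called by edgeR or had an unadjusted p under 0.05. Of 12 endothelial genes, 10 were negative, 8 at an unadjusted p under 0.05, with a median of −1.12 and a mean log2(CPM + 0.1) of 3.26 and 3.31 in the combination, against 3.98 and 4.30 in control. The 8 became 5 without combination A and 3 without control B. Their part in the mural result was not tested.

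**Figure D3:**
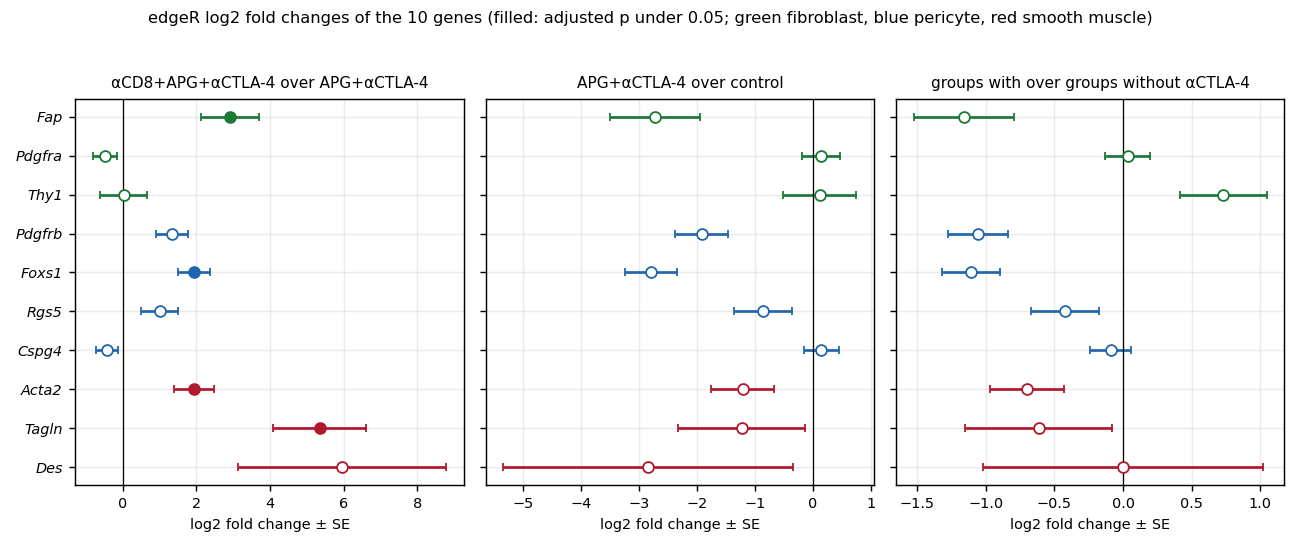
Log2 fold changes (x axis, ± SE from edgeR) of the 10 genes in 3 comparisons, with fibroblast genes in green, pericyte genes in blue and smooth muscle genes in red. Filled points passed an adjusted p of 0.05. Only *Fap*, *Foxs1*, *Acta2* and *Tagln* in the CD8-depleted combination over the combination are filled.

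The depletion experiment asks what the combination does without CD8+ T cells. In the CD8-depleted combination against the combination, *Fap* was higher by a log2 fold change of 2.91 ± 0.781 (edgeR adjusted p = 0.0309), *Foxs1* by 1.93 ± 0.431 (0.0254), *Acta2* by 1.93 ± 0.555 (0.0356) and *Tagln* by 5.35 ± 1.27 (0.0279). These 4 of 10 genes passed, all higher, where edgeR called 19% of all genes, 10.8% higher. *Pdgfrb* had 1.34 ± 0.442 (adjusted p = 0.0508), *Rgs5* 1.00 ± 0.501 (0.158) and *Des* 5.96 ± 2.82 (0.142). *Pdgfra* (−0.48 ± 0.329), *Cspg4* (−0.43 ± 0.298) and *Thy1* (0.02 ± 0.631) did not pass. In 7 genes both depleted libraries lay above both others, against 32.6% of all genes above, and *Pdgfra* lay below, against 31.1%.

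These calls rested on single libraries. Without replicate B of the CD8-depleted combination, the adipocyte-rich one, edgeR called 8 genes in all and 0 of the 10, with log2 fold changes of 2.88 for *Fap* (adjusted p = 0.24), 2.19 for *Foxs1* (0.164), 1.06 for *Acta2* (0.404) and 1.14 for *Tagln* (0.456). Without replicate A of that group, 6 of the 10 passed, with *Pdgfra* and *Cspg4* lower. With either combination library left out, or both summed as 1 sample, edgeR called 2 genes in all and 0 of the 10. The fold changes of *Fap* and *Foxs1* were thus about as large without the adipocyte-rich library, and those of *Tagln* and *Acta2* were smaller. With that library in, edgeR called 9 of 9 adipocyte genes higher. *Cnn1* (calponin) had 133 CPM in it and 0.0434 CPM in replicate A, and *Myh11* had 410 CPM in it and 1.27 CPM in replicate A. The part of these in the smooth muscle result was not tested.

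In the same comparison, of 23 other fibroblast genes 11 rose and 1 fell, with a median log2 fold change of 1.53, where 10.8% of all genes rose and the median of all genes was 0.094. Examples are *Postn* (2.76 ± 0.510, edgeR adjusted p = 0.0252), which had 228 and 189 CPM in the depleted libraries, against 29.9 and 31.7 CPM in the combination, *Cd248* (endosialin, a stromal surface protein), with 39.2 and 49.1 CPM, against 13.2 and 11.2 CPM, and *Col6a1* (a collagen VI chain), with 548 and 450 CPM, against 247 and 234 CPM. The gene that fell was *Pdpn*, with 229 and 164 CPM, against 332 and 337 CPM. The other genes that rose were *Col1a1*, *Col3a1*, *Col15a1*, *Dcn*, *Fbln1*, *Fbln2*, *Islr* and *Lum*. Of 16 other pericyte genes 6 rose (*Gucy1a1*, *Heyl*, *Higd1b*, *Mcam*, *Steap4* and *Vtn*), among them *Mcam* (CD146, an adhesion molecule of vessel walls) with 62.7 and 89.6 CPM, against 27.3 and 25.7 CPM in the combination. Of 13 other smooth muscle genes 7 rose (*Actg2*, *Cnn1*, *Lmod1*, *Myh11*, *Myl9*, *Mylk* and *Ppp1r14a*). For *Cnn1* and *Myh11* the depleted replicate A was below both combination libraries, so only replicate B was higher. Of 12 endothelial genes 8 rose. With replicate B or either combination library left out, edgeR called 0 genes of these 4 lists. Without replicate B the median was 1.14 for the fibroblast, 1.03 for the pericyte, 1.07 for the endothelial and 0.47 for the smooth muscle list, the last down from 2.83. Of the 4 PDGF ligands edgeR called 0, and 2 had an unadjusted p under 0.05 (*Pdgfd* higher, *Pdgfb* lower).

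Over the 8 groups without anti-CD8, each agent was present in 4 groups and absent in 4, so its main effect compared 8 libraries with 8. For anti-CTLA-4, the pericyte genes *Foxs1* and *Pdgfrb* had log2 fold changes of −1.11 ± 0.210 and −1.06 ± 0.219 with edgeR adjusted p of 0.0546 and 0.0678. None of the 10 genes was called, while 0.25% of all genes were, and 5 had an unadjusted p under 0.05, where 10.1% of all genes did. The other 3 were *Fap* (−1.16 ± 0.366), *Acta2* (−0.70 ± 0.269) and *Thy1* (0.73 ± 0.317), of which *Thy1* alone was higher with the antibody. Of 12 T cell genes, 12 had a positive log2 fold change with a median of 1.27, and their part in the *Thy1* value was not tested. With 1 library left out at a time, the log2 fold change ranged from −1.25 to −0.89 for *Foxs1*, −1.19 to −0.84 for *Pdgfrb* and −1.39 to −0.74 for *Fap*. It ranged from −0.85 to −0.46 for *Acta2* and from 0.45 to 1.04 for *Thy1*. The combination libraries are nearly alike, so leaving out 1 keeps the other and cannot show how far these values rest on that group. Mean *Foxs1* was 1.26 CPM in the combination and 3.40 to 4.71 CPM in the other groups with anti-CTLA-4. Mean *Fap* was 0.605 CPM, against 2.18 to 3.94 CPM. DESeq2 on all libraries called *Foxs1*, *Pdgfrb* and *Fap* (adjusted p = 7.39e-05, 1.67e-04 and 0.0476).

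The anti-PD-1 main effect had 3 of the 10 genes at an unadjusted p under 0.05, where 8.77% of all genes passed, and none called by edgeR, as for all genes (0%). They were *Fap* (1.00 ± 0.365), *Thy1* (0.94 ± 0.318) and *Des* (2.99 ± 1.23), all with positive values and each with an adjusted p of 0.561. Without replicate A of APG-157 with anti-PD-1 they became 0.588, 0.648 and 1.08. *Des* also became 1.36 without replicate A of APG-157 with both antibodies and 0.367 with the skeletal muscle mean as a covariate, where *Fap* had 0.575 and *Thy1* 0.537. In the same effect 16 of 16 skeletal muscle genes were positive (median 4.07) and 11 of 12 T cell genes (median 1.12), and their part in these values was not tested further. The APG-157 main effect had 1, *Foxs1* (−0.81 ± 0.209, edgeR adjusted p = 0.657), where 7.36% of all genes passed and 0% were called. DESeq2 also called 0 of the 10 for both effects. When the combination was set against anti-CTLA-4, *Foxs1* had −1.63 ± 0.428 (adjusted p = 0.0687) and *Fap* −1.84 ± 0.756 (0.166), *Pdgfrb* had −0.51 ± 0.436, and 0 of the 10 were called by edgeR, where 0.00511% of all genes were, and 2 had an unadjusted p under 0.05, where 23.6% did. DESeq2 called 1 of them, *Foxs1* (adjusted p = 0.00558). *Fap* had −2.35 without anti-CTLA-4 replicate A and −0.94 without replicate B. The interaction between anti-CTLA-4 and APG-157, averaged over groups with and without anti-PD-1, gave edgeR adjusted p between 0.989 and 1 for all 10 genes. DESeq2 called 0 of the 10. The interaction without anti-PD-1, the setting of the combination, was not tested. Against control, *Foxs1* had −0.56 in APG-157, −1.17 in anti-CTLA-4 and −2.80 in the combination. *Fap* had −0.20, −0.88 and −2.72. The combination effect with anti-CD8 minus that without it was 2.96 ± 0.599 for *Foxs1* and 5.64 ± 1.61 for *Tagln* (both adjusted p = 0.101 in edgeR), with 5 of the 10 genes at an unadjusted p under 0.05, against 27.7% of all genes, and 0 called, where 0.0102% were. DESeq2 called 4 of them, *Foxs1*, *Tagln*, *Acta2* and *Fap*. Without the adipocyte-rich library the *Tagln* value was 1.44 (edgeR adjusted p = 0.492). The interaction and this difference were chosen after the data were seen.

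In the other 8 comparisons of a treated group with control, edgeR called none of the 10 genes, and DESeq2 called 1, *Tagln* in the CD8-depleted combination. Over all genes edgeR called 0.0102% for the CD8-depleted combination and 0% for the other 7 groups. At an unadjusted p under 0.05, 2 of the 10 genes passed for APG-157 with both antibodies and 2 for anti-CTLA-4, where 4.48% and 6.45% of all genes did. There was 1 of 10 for the CD8-depleted combination (19.1% of all genes), both antibodies (6.04%), anti-CD8 (1.19%) and APG-157 with anti-PD-1 (2.43%), and 0 of 10 for APG-157 (0.761%) and anti-PD-1 (0.618%). *Foxs1* was the gene below both control libraries in most groups. Its highest library was below 7.25 CPM, the lower control value, in 7 of 9 treated groups, all but the single agents APG-157 and anti-PD-1. These comparisons share the 2 control libraries. For the combination, 28.8% of all genes were below both control libraries. The share of all genes below them in as many groups was not counted, and *Foxs1* was picked as the most frequent of the 10.

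Some of the 10 genes varied together across the 20 libraries. Of 45 pairs, 14 had a Pearson r with a Benjamini-Hochberg adjusted permutation p under 0.05, 2 of them negative, and 12 had this for both r and Spearman's rho. The libraries of a group share their treatment and are not independent, and the pairs share depth and composition. *Pdgfrb* and *Foxs1* had the highest r, 0.835 (permutation p = 1e-05, the smallest the resamples can give, adjusted p = 4.5e-04) with rho of 0.832 (p = 2e-05, adjusted p = 9e-04). It was 0.908 within libraries A and 0.856 within libraries B, and 0.739 without the combination pair. *Rgs5* and *Des* had r of 0.799 and rho of 0.80 (permutation p = 7e-05 and 8e-05, adjusted p = 7.87e-04 and 0.0018), with 0.829 and 0.849 within A and B. *Pdgfra* and *Cspg4* had r of 0.795 and rho of 0.743 (permutation p = 3e-05 and 2.2e-04, adjusted p = 4.5e-04 and 0.0033), with 0.695 and 0.853 within A and B, and 0.694 without the 2 farthest libraries.

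*Acta2* and *Tagln* had r of 0.796 and rho of 0.579 (permutation p = 3e-05 and 0.00852, adjusted p = 4.5e-04 and 0.0295), but 0.413 within libraries A and 0.87 within libraries B, which hold the adipocyte-rich library, and 0.677 without the 2 farthest libraries. Both negative pairs joined a steady gene to *Tagln*. *Cspg4* and *Tagln* had r of −0.717 and rho of −0.478 (permutation p = 0.0011 and 0.0352, adjusted p = 0.00495 and 0.0991), and r was −0.367 without the 2 farthest libraries, so this relation rests on them. *Pdgfra* and *Tagln* had r of −0.679 and rho of −0.632 (permutation p = 5.8e-04 and 0.00357, adjusted p = 0.00482 and 0.0182), with −0.163 within A and −0.837 within B. *Fap* and *Foxs1* had r of 0.708 (permutation p = 7.5e-04, adjusted p = 0.00482) and rho of 0.46 (p = 0.0434, adjusted p = 0.109), and r was 0.336 without the combination pair, on which it rests. *Fap* passed also with the mural genes *Pdgfrb* (r of 0.685), *Des* (0.668), *Rgs5* (0.631) and *Acta2* (0.618). Their adjusted permutation p were 0.00482, 0.00495, 0.0106 and 0.0147. Without the combination pair these r were 0.463, 0.66, 0.49 and 0.405.

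Markers of other cells varied with some members. Of 70 relations between the 10 genes and 7 marker lists, 13 had r with an adjusted permutation p under 0.05. *Des* followed 16 skeletal muscle genes with r of 0.86 and rho of 0.839 (permutation p = 1e-05 each, the smallest possible, adjusted p = 7e-04 each), 0.969 within libraries A and 0.753 within libraries B, and 0.799 without the 2 farthest libraries. The summed level of these muscle genes ranged from 6.78 to 6675 CPM, with *Myh4* at 0 in 3 libraries. The 2 highest *Des* libraries, APG-157 with both antibodies A and APG-157 with anti-PD-1 A, had the 2 highest muscle means (8.38 and 7.92 on the log2 scale), and the adipocyte-rich library had 197 CPM of *Des* at a muscle mean of −0.298. *Rgs5* also followed the muscle genes, with r of 0.703 and rho of 0.701 (permutation p = 5.6e-04 and 8.2e-04, adjusted p = 0.00653 and 0.0115), 0.812 and 0.717 within A and B, and 0.594 without the 2 farthest libraries. So did *Fap*, with r of 0.638 and rho of 0.617 (permutation p = 0.00214 and 0.00419, adjusted p = 0.0187 and 0.0325). Its r was 0.874 and 0.341 within A and B, and 0.535 without the 2 farthest libraries.

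*Thy1* followed 12 T cell genes with r of 0.816 and rho of 0.744 (permutation p = 4e-05 and 2.1e-04, adjusted p = 0.00117 and 0.0049), 0.844 and 0.759 within A and B, and 0.747 without the pair given both antibodies. The summed level of the T cell genes ranged from 29.7 to 365 CPM. *Fap* followed 12 endothelial genes with r of 0.743 and rho of 0.662 (permutation p = 1.1e-04 and 0.0021, adjusted p = 0.00192 and 0.0245), 0.817 and 0.679 within A and B, and 0.694 without the 2 farthest libraries. By their endothelial mean, these were combination A and replicate B of the CD8-depleted combination. Combination B stayed in, so the endothelial relations were not tested without the combination pair. The endothelial mean also had r of 0.672 with *Tagln* (permutation p = 5e-05, adjusted p = 0.00117, rho 0.756) and 0.746 with *Des* (permutation p = 2.9e-04, adjusted p = 0.00406, rho 0.728), which were 0.637 and 0.706 without the 2 farthest libraries. It had r of 0.63 with *Acta2* (permutation p = 0.00282, adjusted p = 0.0208, rho 0.617) and 0.574 with *Foxs1* (permutation p = 0.00708, adjusted p = 0.0381, rho 0.468), which were 0.452 and 0.558 without them. *Tagln* had r of 0.798 with 9 adipocyte genes (permutation p = 0.00499, adjusted p = 0.0291, rho 0.432 with p = 0.0577 and adjusted p = 0.202), which was 0.245 without the 2 farthest libraries and so rests on them. *Cspg4* had the one negative relation that passed, r of −0.679 with the adipocyte genes (permutation p = 0.00297, adjusted p = 0.0208, rho −0.427), and this was −0.276 without the 2 farthest libraries.

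**Figure D4:**
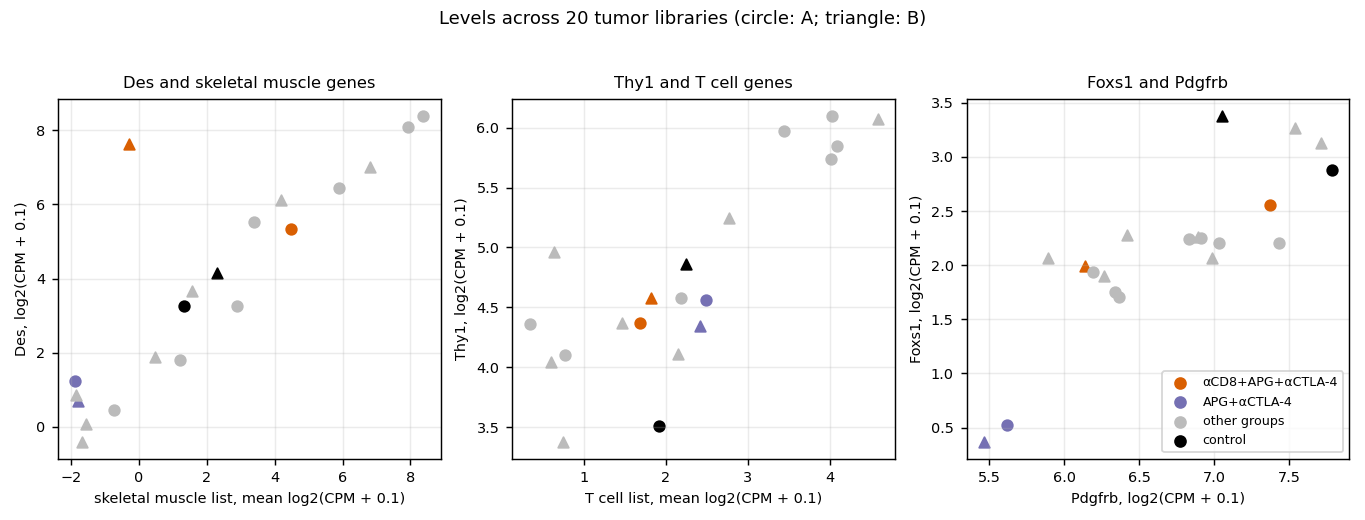
Levels in the 20 libraries on log2(CPM + 0.1) axes: *Des* against the mean of 16 skeletal muscle genes, *Thy1* against the mean of 12 T cell genes, and *Foxs1* against *Pdgfrb* (circles A, triangles B). Points run upward in each panel (r of 0.86, 0.816 and 0.835), and in the first panel replicate B of the CD8-depleted combination lies above the other libraries with a low muscle mean, with 197 CPM of *Des*.

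The genes most like each member, by Pearson r of log2(CPM + 0.1) over 20 libraries among 13922 genes, are given as a description. For *Fap* they were *Nrep* (0.938), *Mfap4* (0.923) and *Postn* (0.914), for *Pdgfrb* *Olfml3* (0.926), *Mxra8* (0.924) and 4833422C13Rik (0.917), and for *Foxs1* *Eln* (0.941), *Mgp* (0.911) and *Rflnb* (0.909). *Eln* (elastin) and *Mgp* (matrix Gla protein) are products of vessel wall and matrix-producing cells. For *Thy1* they were *Ptprcap* (0.922), *Tbc1d10c* (0.916) and *Prkcq* (0.915), of which *Ptprcap* and *Prkcq* are lymphocyte genes. For *Des* they were *Pdlim3* (0.985), *Cap2* (0.98) and *Trdn* (0.971), and triadin, the product of *Trdn*, is a protein of striated muscle. For *Tagln* they were *Myl9* (0.98), *Sox13* (0.96) and *Sox17* (0.953), and for *Acta2* *Smad6* (0.881), *Tmem44* (0.867) and *Mgll* (0.865), the lowest values of any member. For *Rgs5* they were *Fibin* (0.916), *Rian* (0.907) and *Smoc2* (0.90), and for *Cspg4* *Plekha1* (0.914), *Arhgap23* (0.906) and *Tollip* (0.903). Those of *Pdgfra* included *Vcan* (0.90) and *Fhod3* (0.891).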

How the data were processed

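Gene expression was measured by mRNA sequencing in 20 tumor libraries. Each value is an expected count, which the authors deposited unscaled. Per the labels and the paper's methods, reads were trimmed with Trimmomatic 0.39, estimated with Salmon on GENCODE vM27 (GRCm39) and summed to genes. The submitters' notes give Salmon 1.5.0, the methods a later patch version. Genome coordinates are not those of the counts but of RefSeq on GRCm38.p6. A second, log2 table by the authors was not used.

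Counts were rounded, filtered with filterByExpr (minimum count 10, minimum total 15) and fitted over all 20 libraries with TMM factors in edgeR 4.0.16 (quasi-likelihood, robust, 10 residual degrees of freedom) under R 4.3.3. Calls needed a Benjamini-Hochberg adjusted p under 0.05 over 19567 genes, with no fold minimum. CPM use TMM-scaled totals. A main effect is the mean of 4 groups minus that of the other 4. Correlations used 100000 resamples. Multi-mapped reads were split by Salmon, so counts of near-identical genes carry that uncertainty. Library totals of 43.9 to 72.1 (in units of 1e6) limit counting error only.

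The members and lists were chosen with earlier results of these data known. Named genes were the 10 members, their 3 nearest genes with a mean of at least 1 CPM (1 of these is not reported here), and from each list any gene called and the 2 with the largest change between the combination and control. *Pdpn*, *Cnn1* and *Myh11* fall under this rule. *Pdgfb*, outside the rule, was picked with its values in view. The *Cd8a*, keratin and *Pecam1* checks, the interactions, the anti-CD8 difference and the list counts with a library left out were chosen after seeing the data. Alternatives were RLE factors, no filter, a filter at 1 CPM, the replicate letter as block, DESeq2 1.42.0, edgeR on the 2 groups, a skeletal muscle covariate, libraries left out or summed, a log2 fold minimum of 2, a pseudocount of 1 CPM and gene sets without *Thy1* and *Des*. The code was tested on simulated data.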

Additional observations from a re-analysis of the deposited data

How the results depend on the processing

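In the CD8-depleted combination against the combination, the 4 called members became 0 with edgeR on the 2 groups or with the combination pair summed, 2 with a log2 fold minimum of 2, and 0 to 6 when a library was left out. RLE factors gave 5, no filter 3, a filter at 1 CPM 5, the covariate 5, DESeq2 6 and the replicate block 4. In the combination against control, 0 became 1 without a filter, 1 without the adipocyte-rich library, 3 in DESeq2 and 5 with edgeR on the 2 groups, and stayed 0 with a library of these groups left out. The anti-CTLA-4 main effect went from 0 to 1 without a filter, 1 at 1 CPM, 2 without the adipocyte-rich library, 3 in DESeq2 and 0 to 2 with a library left out. Against anti-CTLA-4, the combination gave 1 at 1 CPM, 1 in DESeq2, 1 without the adipocyte-rich library and 3 with edgeR on the 2 groups. Against control, the CD8-depleted combination gave 1 in DESeq2 and 0 to 2 with a library left out, and the anti-CD8 difference gave 1 without a filter, 4 in DESeq2 and 0 to 5. The cause was not tested. The other comparisons had 0 under every alternative.

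Genes called in all differed more: for the combination against control 4 in edgeR on all libraries, 366 in DESeq2 and 713 with edgeR on the 2 groups, and for the depletion comparison 3722, against 0 with edgeR on the 2 groups. Of 474 alternative log2 fold changes of 29 reported values, 3 reversed sign, all against control for the combination: *Pdgfra* to −0.25 without control B (0.65 without control A), *Thy1* to −0.41 without control A (0.95 without control B) and *Des* to 0.007 with the skeletal muscle covariate. The fibroblast difference of −0.69 became −1.16 without *Thy1* and −0.39 with a pseudocount of 1 CPM. The correlation of deviations between same-letter libraries of 2 groups had a median of 0.016 and ranged from −0.381 to 0.705. Of 45 pairs of groups, 13 were over 0.1. The letters thus did not pair libraries throughout, and the main fit used no block. Structure shared by some groups was not tested further.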
